A study of Rattus norvegicus with 20 samples.

Results

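Cell cycle and DNA replication genes were followed in whole rat kidney across 4 disease labels. The set names 39 genes, and its members are the rows of the deposited expression table whose symbol is in that set and whose value is at least 10 in at least 3 of the 20 libraries. No row carries the symbol Mcm5, Cenpe or Top2a, and the other 36 genes all met the rule, out of 15954 rows tested in the whole table. They comprise 12 DNA replication genes, 3 G1 cyclins and 21 mitosis genes.

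The series addressed gene expression in rat models of acute kidney injury after trauma. Frozen kidney was profiled by stranded, paired-end mRNA sequencing, and each library carries 1 of the disease labels Sham, RM, HS and RM-HS. By the labels there were 6 Sham, 6 RM, 5 HS and 3 RM-HS libraries, while the series' design text speaks of 19, of which 5 are RM. The labels do not spell out RM and HS, and give no strain, sex, age or time after injury for any group, so a group is known here by its disease label alone. The labels do not tie libraries to animals, and a p-value here therefore reflects the spread among these libraries and no more. In whole kidney, fewer cells of a type and less RNA per cell cannot be told apart.

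A dividing cell first licenses and copies its DNA and then separates the copies. The MCM helicase is loaded on DNA by Cdc6 and Cdt1, the sliding clamp Pcna holds the polymerases, and ribonucleotide reductase and thymidylate synthase supply the nucleotides. D- and E-type cyclins lead into S phase, where E2F factors drive replication genes, while mitosis genes follow later through the DREAM and MuvB-FOXM1 complexes at CHR elements, with NF-Y at CCAAT boxes. The adult kidney tubule is mostly out of cycle, and surviving tubule cells re-enter it during repair after injury. Pcna also serves DNA repair, and it is a target of p53.

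The promoters of 4 members that the results turn on are shown 5′ to 3′ on the strand of the gene, from 250 bases before to 50 bases after the RefSeq start on build GRCr8. They were taken as the 2 replication genes and the 2 mitosis genes with the smallest adjusted p against Sham that had a promoter here. Tpx2, which ranked between Kif11 and Birc5, had none. Mcm2 and Birc5 were lower, and Pcna and Kif11 were higher. Capitals mark matches to 3 kinds of motif on either strand: the CHR element TTTGAA, the CCAAT box, and 4 E2F forms (TTTCCCGC, TTTGGCGC, TTTCGCGC and TTTGCCGC). The Mcm2 window is chr4:122918045-122918344 (minus strand), the Pcna window chr3:139955771-139956070 (minus strand), the Kif11 window chr1:244536617-244536916 (plus strand) and the Birc5 window chr10:103571896-103572195 (plus strand).
Mcm2: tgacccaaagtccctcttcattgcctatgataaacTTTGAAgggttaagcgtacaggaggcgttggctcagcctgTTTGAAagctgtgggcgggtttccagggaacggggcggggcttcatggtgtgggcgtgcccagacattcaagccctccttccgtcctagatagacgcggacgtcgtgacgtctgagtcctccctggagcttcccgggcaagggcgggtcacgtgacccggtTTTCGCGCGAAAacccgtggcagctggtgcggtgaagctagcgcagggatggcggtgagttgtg
Pcna: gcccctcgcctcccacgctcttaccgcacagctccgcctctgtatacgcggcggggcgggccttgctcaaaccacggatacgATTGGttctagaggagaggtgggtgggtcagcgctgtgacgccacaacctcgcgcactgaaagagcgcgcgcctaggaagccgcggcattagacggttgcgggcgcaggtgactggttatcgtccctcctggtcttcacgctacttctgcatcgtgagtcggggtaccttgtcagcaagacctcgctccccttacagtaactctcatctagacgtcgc
Kif11: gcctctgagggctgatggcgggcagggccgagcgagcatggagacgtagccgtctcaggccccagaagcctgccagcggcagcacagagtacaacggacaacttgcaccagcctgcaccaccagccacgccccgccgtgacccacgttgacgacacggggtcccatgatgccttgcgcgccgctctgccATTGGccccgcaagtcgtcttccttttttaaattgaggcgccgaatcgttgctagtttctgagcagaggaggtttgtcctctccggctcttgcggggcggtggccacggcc
Birc5: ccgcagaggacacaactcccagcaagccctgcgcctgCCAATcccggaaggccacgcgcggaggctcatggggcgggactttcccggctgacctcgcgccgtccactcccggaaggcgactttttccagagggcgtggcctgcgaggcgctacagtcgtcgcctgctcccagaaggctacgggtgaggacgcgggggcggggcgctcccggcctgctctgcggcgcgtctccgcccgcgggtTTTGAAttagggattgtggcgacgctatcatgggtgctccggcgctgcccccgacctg

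In the Mcm2 promoter, TTTCGCGC was read at position -14 and, overlapping it, on the other strand at -10, counted at the leftmost base from the start site, and TTTGAA at -215 and -175. The Pcna and Kif11 promoters each held 1 CCAAT box, read on the opposite strand at -168 and -61. The Birc5 promoter held CCAAT at -213 and TTTGAA at -8.

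RefSeq promoters were matched by symbol for 26 of the 36 members. An E2F form stood in 6 of 9 replication gene promoters (66.7%) and in 1 of 16 mitosis gene promoters (6.25%), against 2.25% of all 27457 promoters. The CHR element stood in 1 of 9 (11.1%) and 11 of 16 (68.8%), against 18.1% of all, and CCAAT in 6 of 9 (66.7%) and 13 of 16 (81.2%), against 37.7%. The 2 classes thus differ in the letters before their starts, with E2F forms mostly in the one and CHR mostly in the other. A match is a description of the sequence and not a measured binding site.

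**Figure D1:**
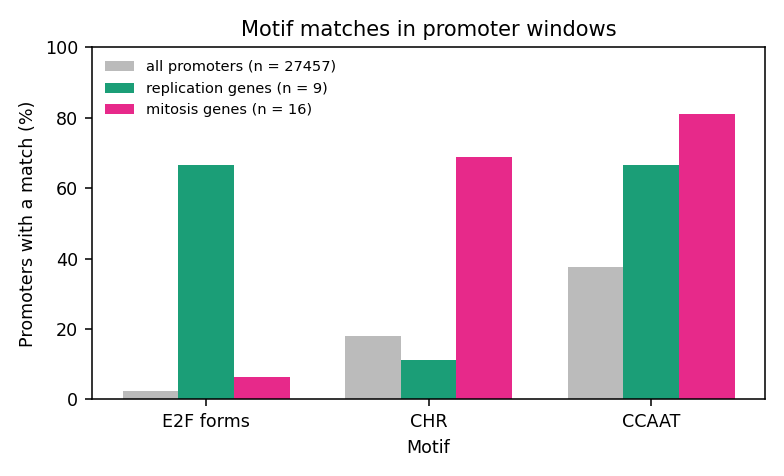
Share of promoter windows (y axis, percent, 300 bases each) with at least 1 match to the E2F forms, the CHR element or CCAAT (x axis), for all promoters, 9 replication genes and 16 mitosis genes. E2F forms stand in 66.7% of the replication gene windows and CHR in 68.8% of the mitosis gene windows, against 2.25% and 18.1% of all windows.

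Libraries held 45047179 to 109940948 reads assigned to genes and 42.2 to 54.7% of them were mitochondrial. Sham 2 to 5 stood apart from Sham 1 and 6. Summed over 7 early proximal tubule markers, the normalized read count ran from 71846 to 136835 in Sham 2 to 5. It was 243293 in Sham 1, 244738 in Sham 6 and at least 221828 in each RM, HS and RM-HS library. Counts and calls of cell cycle genes against Sham are therefore also given with Sham 1 and Sham 6 alone as controls, a choice made after these values were seen. For the genes studied these 2 controls were the ends of the Sham range. The mean over the mitosis genes, relative to the Sham mean, was 0.50 in Sham 1 and -0.68 in Sham 6 (log2). Over the replication genes it was 0.29 and -0.51. A call lost with them is thus lost against 2 controls that lie far apart for these genes. Library names begin with R or S: Sham and RM-HS hold R only, RM holds 1 R (RM 1) and 5 S, and HS holds 3 R and 2 S (HS 4 and 5). Of 6 neutrophil markers, 6 rose in RM, 2 in HS and 6 in RM-HS. Of 8 collecting duct markers, 7, 8 and 7 fell, as did 5, 5 and 4 of 5 thick ascending limb and 4, 2 and 3 of 6 fibroblast markers. Podocyte markers rose in 6, 5 and 2 of 6 and early proximal tubule markers in 7, 5 and 7 of 7. No marker of these lists passed in the other direction. Among 7 macrophage markers 1, 0 and 2 rose and 0, 3 and 2 fell. Of 3 late proximal tubule markers 1 rose and 2 fell in each comparison. Of 5 endothelium markers 1 rose in each, and 1, 3 and 2 fell. In RM 1 of 4 erythroid precursor and 1 of 6 T and NK cell markers rose, with no other call in these 2 lists. None of 2 distal convoluted tubule and 2 B and plasma cell markers passed. Of all rows 26.2%, 23.3% and 21.3% rose and 26.8%, 23.2% and 21.0% fell. The summed neutrophil count was 1060 to 4807 in Sham, 5175 to 20975 in RM, 2091 to 8560 in HS and 7953 to 13055 in RM-HS. The summed podocyte count was 2128 to 5785 in Sham 2 to 5, but 9245 in Sham 1 and 9057 in Sham 6. It was 9337 to 12212 in RM, 8500 to 10705 in HS and 8799 to 10329 in RM-HS. All marker counts here are against all 6 Sham libraries, and none is given for Sham 1 and 6 alone. Whether these differences take part in the results on cell cycle genes was not tested.

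Levels of the members are normalized read counts, that is, reads scaled by the size factor of the library. Changes are log2 fold changes on the log2(count + 1) scale ± SE from limma fitted to all rows, a call is an adjusted p under 0.05 over all rows, and the 3 comparisons with Sham share their controls. In RM, 2 of 12 replication genes rose and 6 fell, where 53% of all rows passed, 26.2% as higher and 26.8% as lower. In HS, 1 rose and 4 fell, where 46.4% of all rows passed, 23.3% and 23.2% in the 2 directions. In RM-HS, 2 rose and 6 fell, where 42.3% did, 21.3% and 21.0% in the 2 directions. The median change of the replication genes was -0.55, -0.28 and -0.91 in RM, HS and RM-HS, where that of all rows was -0.04, -0.03 and -0.03. All libraries of the group lay above or below all Sham libraries in 4106, 4140 and 5191 of the 15954 rows. The same held for 4, 2 and 7 of 12 replication genes, 1, 0 and 1 of 3 G1 cyclins and 2, 2 and 1 of 21 mitosis genes. In RM against HS, RM-HS against RM and RM-HS against HS 2273, 1238 and 3980 rows were apart in this way. The G1 cyclins fell in 3, 1 and 2 of 3, and with Sham 1 and 6 alone in 1, 0 and 2 (limma, the HS count being 0 at an unadjusted p under 0.05 too, and edgeR and DESeq2 calling 1 with all controls). In RM 0 of the 3 passed in limma with the first letter of the library name as covariate and 0 among libraries named R, each with 2 at an unadjusted p under 0.05, and in HS 0 passed with either, with 1 and 0 at an unadjusted p under 0.05. In RM-HS 2 passed with either, and edgeR and DESeq2 were not run with these settings. With the covariate 28.5% of all rows passed in RM and 37.4% in HS. Sham and RM-HS hold only libraries named R, so neither setting could move the RM-HS changes against Sham.

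Of the 21 mitosis genes, 2 rose and 6 fell in RM, 1 rose and 1 fell in HS, and 4 fell and none rose in RM-HS. Their median change was -0.56, 0.10 and -0.65, and 10, 3 and 9 of them had an unadjusted p under 0.05. Counting both directions together, the share of mitosis genes passing was below that of all rows in all 3 comparisons. The share of replication genes passing, counted likewise, was above it in RM and RM-HS. For falls alone, 6 of 21 mitosis genes fell in RM, near the 26.8% of all rows that did. The small HS median had no steady sign: it was -0.03 with upper quartile scaling and -0.04 with the name letter as a covariate, and leaving out 1 library it ran from -0.02 without Sham 6 to 0.30 without HS 1. The RM-HS median was -0.32 without RM-HS 1 and -1.02 without RM-HS 2.

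**Figure D2:**
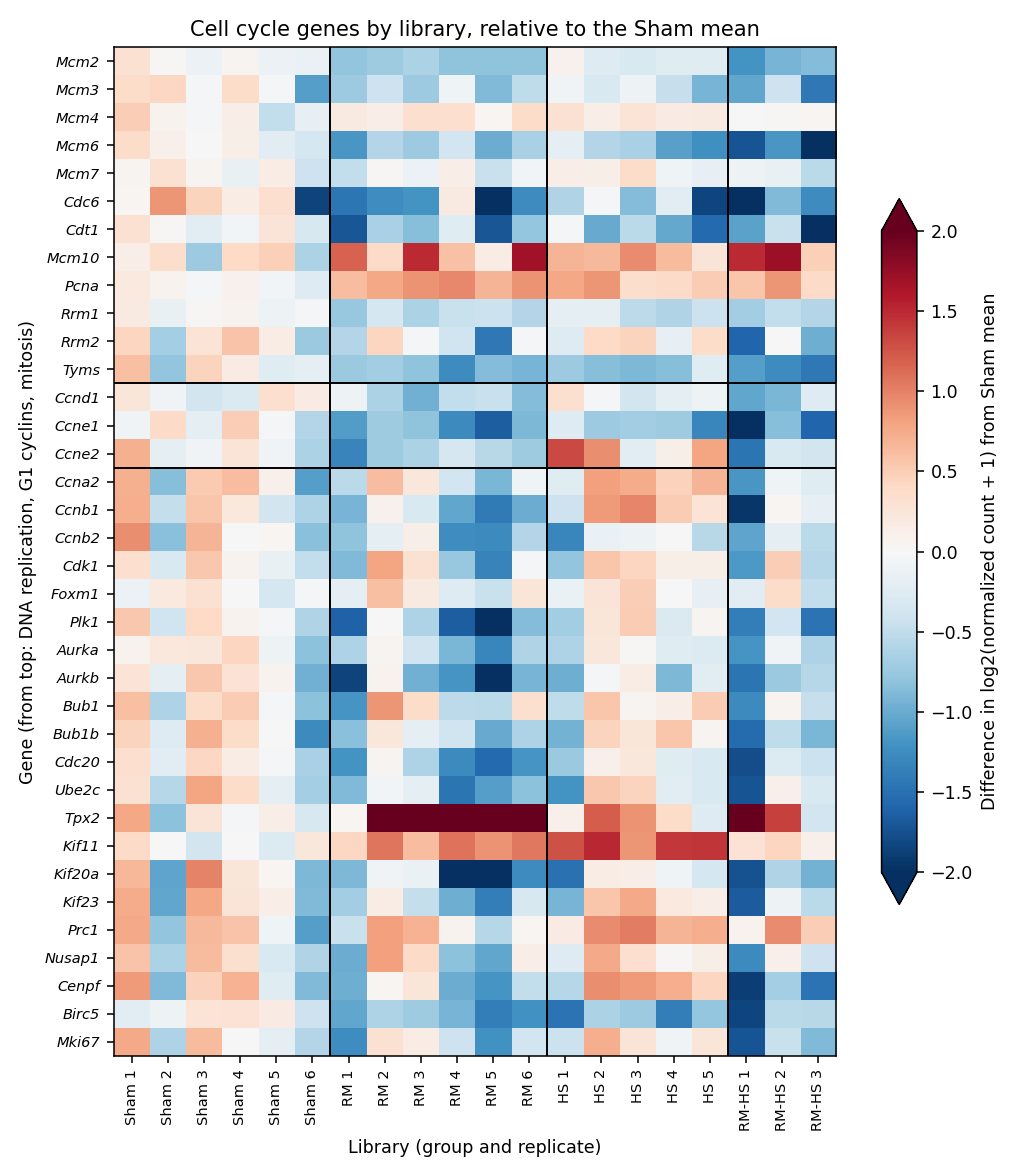
Difference of each library from the Sham mean, in log2(normalized count + 1), for the 36 genes (rows, from top replication, G1 cyclins and mitosis) in the 20 libraries (columns, by group and replicate). The mitosis rows change colour together from library to library within a group, as in HS 1, the lowest HS library for 18 of 21 mitosis genes, and RM 2, the highest RM library for 17.

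Among the helicase subunits, Mcm2 and Mcm6 fell in RM and RM-HS, and Mcm3 in RM-HS. Mcm2, a subunit of the helicase (rn6 chromosome 4, 120825699 to 120840111), had a normalized count of 1129 to 1523 in Sham (median 1199) and 704 to 797 in RM (median 714). It had 1316, 1034, 998, 1049 and 1049 in HS 1 to 5 and 542, 647 and 680 in RM-HS 1 to 3. Every RM and RM-HS library lay below every Sham and HS library, and all RM-HS libraries lay below all RM libraries. The log2 fold change against Sham was -0.76 ± 0.09 in RM (limma adjusted p = 1.1e-06), -0.19 ± 0.09 in HS (limma adjusted p = 0.11) and -0.99 ± 0.11 in RM-HS (limma adjusted p = 1.4e-06). These calls held with Sham 1 and 6 alone, at -0.84 in RM and -1.08 in RM-HS, and with RM 1 as the only RM library (-0.78, limma adjusted p = 0.0455, that library being assumed to vary like the other groups).

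Mcm6, another helicase subunit (chromosome 13, 45042883 to 45068073), stood at 380 to 631 in Sham (median 504) and 217 to 374 in RM (median 302). It stood at 426, 322, 311, 229 and 208 in HS and at 147, 215 and 118.3 in RM-HS. The 3 RM-HS libraries were below all RM libraries and all Sham libraries, and HS overlapped with Sham only in HS 1. Mcm6 changed by -0.75 ± 0.19 in RM (limma adjusted p = 0.0023), by -0.75 ± 0.20 in HS (limma adjusted p = 0.0042) and by -1.64 ± 0.23 in RM-HS (limma adjusted p = 1.7e-05). Against Sham 1 and 6 alone the RM-HS call held (-1.65), while RM (-0.76, limma adjusted p = 0.0547) and HS (-0.76, limma adjusted p = 0.0722) missed the threshold. The RM call was also lost with the name letter as covariate (-0.58, limma adjusted p = 0.112) and among libraries named R (-1.16, limma adjusted p = 0.0592), and the HS call among libraries named R (-0.47, limma adjusted p = 0.102).

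Mcm3 (chromosome 9, 26914057 to 26932201) had 113.1 to 324 in Sham (median 276), 131 to 228 in RM (median 159), 230, 196, 226, 175 and 126 in HS and 117.6, 183 and 89.8 in RM-HS. It fell in RM-HS (-0.96 ± 0.30, limma adjusted p = 0.013), a call lost without RM-HS 1 (limma adjusted p = 0.052), without RM-HS 3 (0.098) and with Sham 1 and 6 alone (-0.59, limma adjusted p = 0.275). The lowest Sham library was Sham 6. Mcm4 (medians 427 in Sham, 508 in RM, 480 in HS and 431 in RM-HS) and Mcm7 (968, 879, 1008 and 840) passed in none of the 3 comparisons with Sham.

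Both helicase loaders fell in RM. Cdt1, which brings MCM to origins (chromosome 19, 55381565 to 55386511), stood at 213 to 327 in Sham (median 263) and 79.9 to 223 in RM (median 150), at 261, 132, 182, 129 and 89.7 in HS and at 126, 196 and 48.5 in RM-HS. All RM-HS libraries lay below all Sham libraries, while RM and HS each reached into the Sham range. The changes were -0.99 ± 0.31 in RM (limma adjusted p = 0.012), -0.83 ± 0.33 in HS (limma adjusted p = 0.045) and -1.31 ± 0.39 in RM-HS (limma adjusted p = 0.0099). The HS call was lost under 14 of 24 alternatives, among them leaving out any 1 of Sham 1 to 5, HS 2, HS 4 or HS 5 (-0.88 to -0.65), the RM-HS call without RM-HS 3 (-0.75, limma adjusted p = 0.13), and all 3 with Sham 1 and 6 alone (-0.98, -0.82 and -1.30). The RM call was lost with the name letter as covariate (-0.91, limma adjusted p = 0.147) and among libraries named R (-1.71, limma adjusted p = 0.0946). Cdc6, its partner in loading, ranged from 22.3 in Sham 6 to 153 in Sham 2 (median 98.1) and from 8.88 to 93.8 in RM (median 34.2), and fell in RM (-1.34 ± 0.49, limma adjusted p = 0.025). That call was lost under 6 of 25 alternatives, among them leaving out Sham 2 (-1.17), Sham 3 (-1.25) or RM 5 (-0.99) and Sham 1 and 6 alone (-0.44).

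Mcm10, which helps start the unwound fork and is not part of the MCM ring, went the other way (chromosome 17, 77224218 to 77245486). It had 72.4 to 168 in Sham (median 142), 133 to 385 in RM (median 227), 193, 189, 231, 187 and 144 in HS and 341, 396 and 168 in RM-HS. RM and HS overlapped with Sham, and RM-HS 3 lay just above the highest Sham library. Mcm10 rose by 0.91 ± 0.29 in RM (limma adjusted p = 0.011) and 1.23 ± 0.35 in RM-HS (limma adjusted p = 0.0081), and in HS it did not pass (0.63 ± 0.30, limma adjusted p = 0.091). Against Sham 1 and 6 alone the values were 1.16 and 1.48, both passing. The RM-HS call was lost without RM-HS 2 (0.99, limma adjusted p = 0.057) and the RM call among libraries named R (1.17, limma adjusted p = 0.209).

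Pcna, the sliding clamp (chromosome 3, 124880323 to 124884664), rose in all 3 injured groups. Its count was 2334 to 3206 in Sham (median 2839), 4300 to 5425 in RM (median 5021), 4759, 5181, 3578, 3635 and 3980 in HS and 4126, 5150 and 3634 in RM-HS. No library of the injured groups fell within the Sham range. The changes were 0.81 ± 0.11 in RM (limma adjusted p = 3.6e-06), 0.58 ± 0.11 in HS (limma adjusted p = 0.0003) and 0.61 ± 0.13 in RM-HS (limma adjusted p = 0.00099), and all 3 passed with Sham 1 and 6 alone (0.84, 0.61 and 0.64). The RM call was lost only with RM 1 as the single RM library (0.62, limma adjusted p = 0.125).

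Of the nucleotide supply genes, Rrm1 and Tyms fell in all 3 injured groups. Rrm1, the large subunit of ribonucleotide reductase (chromosome 1, 167538387 to 167562687), had 1065 to 1349 in Sham (median 1187), 698 to 925 in RM (median 828), 1041, 1046, 828, 778 and 882 in HS and 732, 838 and 788 in RM-HS, so that no injured library reached the Sham range. Its change was -0.54 ± 0.09 in RM (limma adjusted p = 7.8e-05), -0.38 ± 0.10 in HS (limma adjusted p = 0.0032) and -0.59 ± 0.11 in RM-HS (limma adjusted p = 0.00037). Tyms, thymidylate synthase (chromosome 9, 121918875 to 121931578), had 250 to 653 in Sham (median 433), 180 to 266 in RM (median 241), 260, 239, 231, 239 and 365 in HS and 200, 180 and 160 in RM-HS. Only RM-HS was clear of the Sham range. Tyms changed by -0.89 ± 0.19 (limma adjusted p = 0.00064), -0.71 ± 0.20 (limma adjusted p = 0.0061) and -1.26 ± 0.23 (limma adjusted p = 0.00025) in RM, HS and RM-HS. All calls of both genes held with Sham 1 and 6 alone (Rrm1 -0.62, -0.46 and -0.68, Tyms -1.10, -0.92 and -1.47). Among libraries named R, Rrm1 in HS (-0.29, limma adjusted p = 0.0631) and Tyms in RM (-0.74, limma adjusted p = 0.305) did not pass. Rrm2, the small reductase subunit made in S phase, did not pass (-0.34, 0.16 and -0.85 ± 0.38, the last with limma adjusted p = 0.078).

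**Figure D3:**
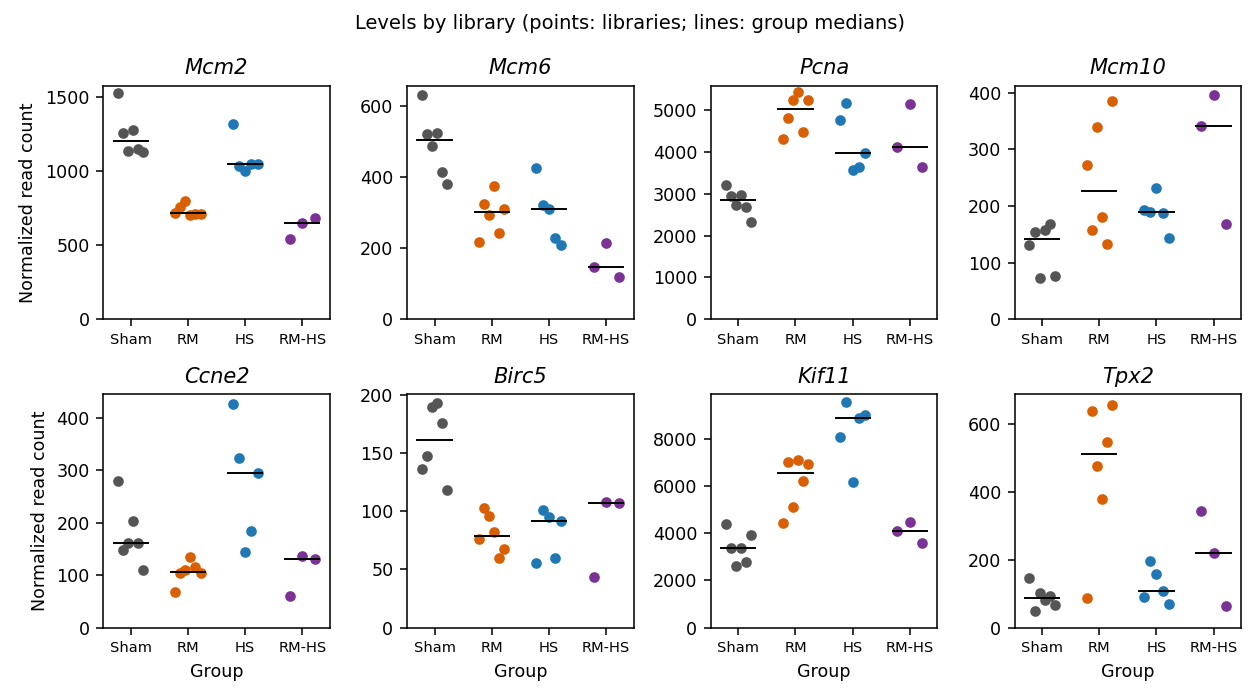
Normalized read counts (y axes, from 0) of 8 genes in each library (points) by group (x axes), with lines at the group medians. Mcm2 in RM and RM-HS lies below all Sham libraries, Pcna in every injured group lies above them, Kif11 is highest in HS, and Tpx2 is at 86.8 in RM 1 and at 378 or more in the other RM libraries.

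Of the G1 cyclins, Ccnd1 and Ccne2 were lower in RM and RM-HS than in HS. Ccnd1, cyclin D1 (chromosome 1, 218090750 to 218100325), had 2930 to 4775 in Sham (median 3937), 1953 to 3536 in RM (median 2575), 4739, 3750, 2931, 3345 and 3545 in HS and 1856, 2021 and 3192 in RM-HS. It fell in RM (-0.58 ± 0.16, limma adjusted p = 0.0056) and RM-HS (-0.73 ± 0.20, limma adjusted p = 0.0064), and the HS value was -0.07 ± 0.17. The direct comparison with HS also passed for RM (-0.51 ± 0.17, limma adjusted p = 0.036) and RM-HS (-0.66 ± 0.21, limma adjusted p = 0.03). Both falls against Sham held with Sham 1 and 6 alone (-0.78 and -0.93). The RM call was lost with the name letter as covariate (-0.33, limma adjusted p = 0.293) and among libraries named R (-0.10, limma adjusted p = 0.895), the RM-HS call without RM-HS 1 (limma adjusted p = 0.059), and the comparisons with HS under 9 of 23 and 5 of 20 alternatives. Leaving out RM 2, RM 3, RM 6, HS 1, HS 2, HS 4 or HS 5 ended the first (-0.54 to -0.41), and leaving out HS 1, HS 2, RM-HS 1 or RM-HS 2 the second (-0.65 to -0.51).

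Ccne1 and Ccne2 encode the E-type cyclins that start S phase with Cdk2. Ccne1 (chromosome 1, 94485832 to 94495067) had 97.7 to 207 in Sham (median 143), 46.6 to 90.3 in RM (median 73.2), 123, 88.4, 91.1, 90.1 and 59.2 in HS and 28.3, 81.5 and 48.5 in RM-HS. It was below the Sham range in every RM and RM-HS library and in 4 of 5 HS libraries. Ccne1 changed by -1.07 ± 0.25 in RM (limma adjusted p = 0.0014), -0.74 ± 0.26 in HS (limma adjusted p = 0.027) and -1.59 ± 0.31 in RM-HS (limma adjusted p = 0.00041). Against Sham 1 and 6 alone it was at -0.75, -0.41 and -1.27, and only RM-HS passed (limma adjusted p = 0.0312). The HS call was also lost without Sham 2 (limma adjusted p = 0.059), without Sham 4 (0.065) and without HS 5 (0.085). With the name letter as covariate RM (-0.87, limma adjusted p = 0.0786) and HS (-0.64, limma adjusted p = 0.0932) did not pass, nor did they among libraries named R (-1.11, limma adjusted p = 0.23, and -0.56, limma adjusted p = 0.208).

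Ccne2 (chromosome 5, 24434872 to 24446406) had 110 to 280 in Sham (median 162), 67.8 to 134 in RM (median 107), 427, 324, 144, 184 and 295 in HS and 61.0, 137 and 131 in RM-HS. Every HS library was above every RM and RM-HS library. The difference was -1.29 ± 0.29 for RM against HS (limma adjusted p = 0.0028), a call lost only among libraries named R (-1.99, with 1 RM library). For RM-HS against HS it was -1.30 ± 0.35 (limma adjusted p = 0.013). That call was lost without RM-HS 1 (-0.92, limma adjusted p = 0.098), in a fit of the 2 groups alone (limma adjusted p = 0.051) and among libraries named R (-1.39). Against Sham, RM was lower (-0.71 ± 0.27, limma adjusted p = 0.035, lost under 8 of 25 alternatives, among them without Sham 1, Sham 4, RM 1, RM 2 or RM 6 at -0.71 to -0.57), HS did not pass (0.58 ± 0.29, limma adjusted p = 0.1) and neither did RM-HS (-0.71 ± 0.34, limma adjusted p = 0.093). The RM call was also lost with Sham 1 and 6 alone (-0.75, limma adjusted p = 0.18).

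**Figure D4:**
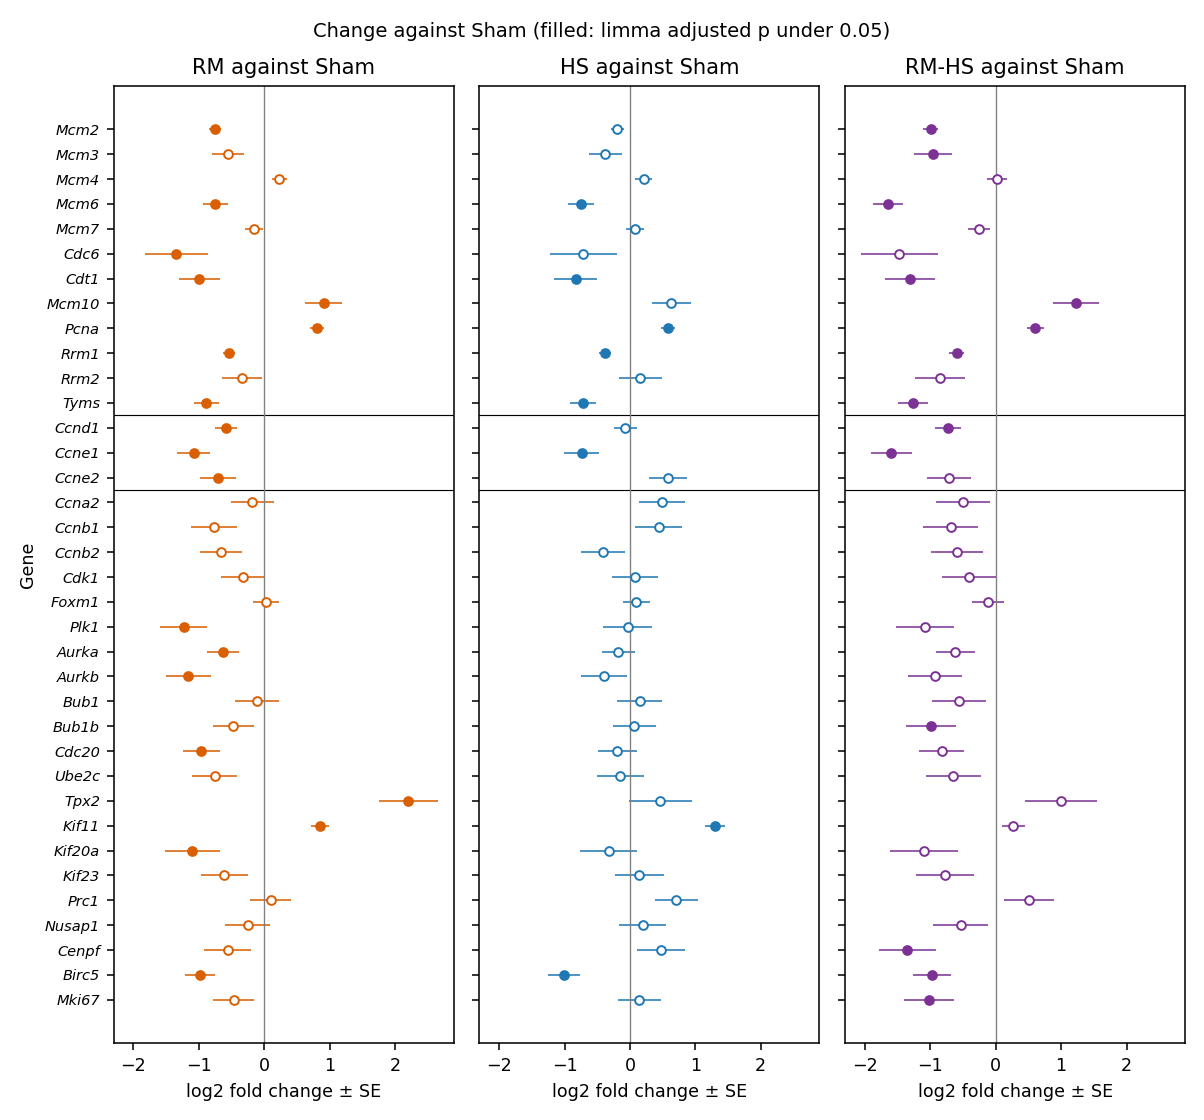
Log2 fold change against Sham ± SE (x axes) of the 36 genes (y axis, replication, G1 cyclins and mitosis from top) in RM, HS and RM-HS, filled where the limma adjusted p was under 0.05. Pcna lies right of 0 in all 3 panels, Rrm1, Tyms and Birc5 left of it, and Kif11 is filled in RM and HS only.

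The 2 mitosis genes that rose were Kif11 and Tpx2. Kif11, the kinesin that pushes spindle poles apart (chromosome 1, 256035866 to 256088299), had 2597 to 4363 in Sham (median 3363) and 4433 to 7091 in RM (median 6561). It had 8062, 9533, 6144, 8855 and 9014 in HS and 4085, 4471 and 3566 in RM-HS. All RM and HS libraries lay above all Sham libraries, and RM-HS lay within or just above the Sham range. The changes were 0.85 ± 0.14 in RM (limma adjusted p = 5e-05), 1.30 ± 0.15 in HS (limma adjusted p = 2e-06) and 0.27 ± 0.17 in RM-HS (limma adjusted p = 0.22). RM-HS was below HS by -1.03 ± 0.18 (limma adjusted p = 0.00071), a call that held under every alternative run, and RM-HS against RM did not pass (-0.58 ± 0.17, limma adjusted p = 0.11). Against Sham 1 and 6 alone RM was at 0.55 and HS at 0.99, both passing. RM 1 (4433) as the only RM library gave 0.41 (limma adjusted p = 0.413).

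Tpx2, which activates Aurka on the spindle (chromosome 3, 148327965 to 148370187), was far lower in RM 1 than in the other RM libraries. It had 47.3 to 145 in Sham (median 87.5), 86.8 in RM 1 and 378 to 658 in RM 2 to 6. It had 90.6, 196, 158, 109 and 70.4 in HS and 343, 219 and 64.1 in RM-HS. RM 1, the only RM library named R, lay within the Sham range, and the 5 named S lay above every library of the other groups. With 1 RM library named R, the name and the single library cannot be told apart. The change in RM was 2.20 ± 0.45 (limma adjusted p = 0.00044), and it was 1.65 with the name letter as covariate (limma adjusted p = 0.0601) and 0.04 among libraries named R (limma adjusted p = 0.983). In HS the 2 libraries named S stood at 109 and 70.4 and the 3 named R at 90.6, 196 and 158. HS (0.47 ± 0.48) and RM-HS (1.0 ± 0.56) did not pass.

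Birc5, survivin, the subunit of the chromosomal passenger complex that also blocks apoptosis (chromosome 10, 106856079 to 106864424), had 118.3 to 193 in Sham (median 161) and 59.9 to 103 in RM (median 79.0). It had 55.7, 100.9, 94.7, 59.7 and 91.3 in HS and 43.6, 108 and 107 in RM-HS, all below the Sham range. The changes were -0.98 ± 0.23 in RM (limma adjusted p = 0.0016), -1.0 ± 0.25 in HS (limma adjusted p = 0.0024) and -0.97 ± 0.29 in RM-HS (limma adjusted p = 0.01). None of the 3 passed with Sham 1 and 6 alone (-0.67, -0.69 and -0.66, limma adjusted p = 0.153, 0.166 and 0.223), the RM-HS call was lost without RM-HS 1 (limma adjusted p = 0.14), and the RM call among libraries named R (-1.04, limma adjusted p = 0.253).

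The kinases Plk1, Aurkb and Aurka fell in RM. Plk1, which drives entry and exit of mitosis (chromosome 1, 192115990 to 192125969), had 72.0 to 159 in Sham (median 112), 16.6 to 109 in RM (median 47.3), 67.3, 129, 155, 89.1 and 114 in HS and 41.4, 83.8 and 38.5 in RM-HS. RM overlapped with Sham in its highest library, at 109. Plk1 was at -1.23 ± 0.36 in RM (limma adjusted p = 0.0072), -0.04 ± 0.38 in HS and -1.08 ± 0.44 in RM-HS (limma adjusted p = 0.055). Aurkb, the passenger complex kinase (chromosome 10, 55626741 to 55632398), had 49.7 to 142 in Sham (median 110) and 22.2 to 103 in RM (median 46.2), a change of -1.16 ± 0.34 (limma adjusted p = 0.0071), and in HS (-0.39) and RM-HS (-0.92 ± 0.41) it did not pass. Aurka, the spindle pole kinase (chromosome 3, 170364177 to 170380208), changed by -0.63 ± 0.24 in RM (limma adjusted p = 0.034, lost under 9 of 25 alternatives, among them without Sham 1, 2, 3 or 4, RM 4 or RM 5 at -0.62 to -0.50), from 118.3 to 284 in Sham (median 231) to 84.3 to 218 in RM (median 137).

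Cdc20, the activator of the anaphase-promoting complex (chromosome 5, 137260728 to 137264931), had 228 to 479 in Sham (median 374) and 122 to 373 in RM (median 157), and fell in RM by 0.96 ± 0.28 (limma adjusted p = 0.0072). Kif20a, a cytokinesis kinesin (chromosome 18, 27424328 to 27432814), had 128 to 537 in Sham (median 296) and 59.9 to 255 in RM (median 128), and fell by 1.10 ± 0.42 (limma adjusted p = 0.033, lost under 10 of 25 alternatives, among them without Sham 1, 3, 4 or 5, RM 4, RM 5 or RM 6 at -1.09 to -0.89). Against Sham 1 and 6 alone none of Plk1, Aurkb, Aurka, Cdc20 and Kif20a passed in RM (-1.20, -0.81, -0.25, -0.80 and -0.99, limma adjusted p = 0.107 to 0.601). With the name letter as covariate they did not pass either, at -1.32, -1.31, -0.56, -0.99 and -1.10, and among libraries named R they stood at -1.62, -1.85, -0.62, -1.19 and -0.89 and did not pass. The groups overlapped for each of these 5 genes.

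In RM-HS, Cenpf, Mki67, Bub1b and Birc5 fell. Cenpf, a kinetochore protein of G2 and mitosis (chromosome 13, 108132499 to 108178609), had 97.2 to 324 in Sham (median 200), 78.8 to 214 in RM (median 110), 121, 346, 327, 298 and 243 in HS and 47.9, 112 and 64.1 in RM-HS. Every RM-HS library lay below every HS library. It was lower in RM-HS than in Sham (-1.35 ± 0.43, limma adjusted p = 0.017) and than in HS (-1.83 ± 0.45, limma adjusted p = 0.0076). The first call was lost without RM-HS 1 (-1.08), without RM-HS 3 (-1.29) and with Sham 1 and 6 alone (-1.33). The second was lost only among libraries named R (-1.76). Mki67, the antigen Ki-67 used to count cycling cells (chromosome 1, 207993895 to 208020454), had 132 to 346 in Sham (median 191), 85.8 to 252 in RM (median 154), 151, 339, 244, 194 and 240 in HS and 61.0, 149 and 110 in RM-HS. It was lower in RM-HS than in Sham (-1.02 ± 0.38, limma adjusted p = 0.038, lost under 8 of 22 alternatives) and than in HS (-1.17 ± 0.40, limma adjusted p = 0.042, lost under 10 of 20). Leaving out Sham 1, 3 or 4, RM-HS 1 or RM-HS 3 ended the first (-1.09 to -0.67), and leaving out HS 2 to 5, RM-HS 1 or RM-HS 3 the second (-1.23 to -0.81). Sham 1 and 6 alone ended the first as well (-1.11, limma adjusted p = 0.12).

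The fourth gene lower in RM-HS besides Birc5, Cenpf and Mki67 was Bub1b, a spindle checkpoint kinase (-0.99 ± 0.38, limma adjusted p = 0.043, lost under 10 of 22 alternatives, among them without Sham 1, 3, 4 or 5, RM-HS 1 or RM-HS 3 at -1.03 to -0.71), named after its values were seen. Against Sham 1 and 6 alone Bub1b was at -0.57 (limma adjusted p = 0.42). With Sham 1 and 6 alone 0 of the 21 mitosis genes passed in RM-HS by limma, with 2 at an unadjusted p under 0.05, and edgeR and DESeq2 were not run with those controls. With all controls edgeR called 4 and DESeq2 7. The limma count was 0 without RM-HS 1, 2 without RM-HS 3, Sham 1, Sham 3 or Sham 4, 7 without RM-HS 2 and 8 without Sham 6. Of all rows 31.7% passed without RM-HS 1, 35.8% without RM-HS 3 and 42.3% without Sham 6.

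The other 10 mitosis members passed in no comparison with Sham in limma with all libraries. DESeq2, upper quartile scaling and array weights each called Ccnb1, Ccnb2 and Ube2c lower in RM. The 10 were the cyclins Ccna2, Ccnb1 and Ccnb2 and their partner Cdk1, the transcription factor Foxm1, the checkpoint kinase Bub1, the ubiquitin-conjugating enzyme Ube2c, the cytokinesis genes Kif23 and Prc1 and the spindle gene Nusap1. Foxm1 was at 0.03, 0.10 and -0.11 in RM, HS and RM-HS, with 91.5 to 144 in Sham and 85.4 to 177 in RM. The rows of Ccnb2 (1501 bases within Akap7) and Nusap1 (29943 bases within Rpap1) lie wholly inside another gene, and Mcm7, Aurka and Kif20a share 280, 85 and 15 bases with a neighbour. The strand setting of the counting is not given in the sources used here, so reads of these rows are uncertain.

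Within groups the mitosis genes moved together from library to library. The mean over the 21 genes, relative to the Sham mean, ran from -0.68 (Sham 6) to 0.50 (Sham 1) in Sham, from -0.998 (RM 5) to 0.41 (RM 2) in RM, from -0.58 (HS 1) to 0.50 (HS 2) in HS and was -1.12, -0.04 and -0.54 in RM-HS 1, 2 and 3. Group means ± SD were -0.38 ± 0.55 in RM (n = 6), 0.10 ± 0.42 in HS (n = 5) and -0.57 ± 0.54 in RM-HS (n = 3), with an SD of 0.50 in Sham (n = 6), so that all groups overlapped with Sham. Within RM, RM 2 was highest for 17 and RM 5 lowest for 16 of the 21 genes, and within RM-HS, RM-HS 2 was highest for 19 and RM-HS 1 lowest for 17. HS 1 was lowest for 18, though it was the highest HS library for 5 of 12 replication genes.

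**Figure D5:**
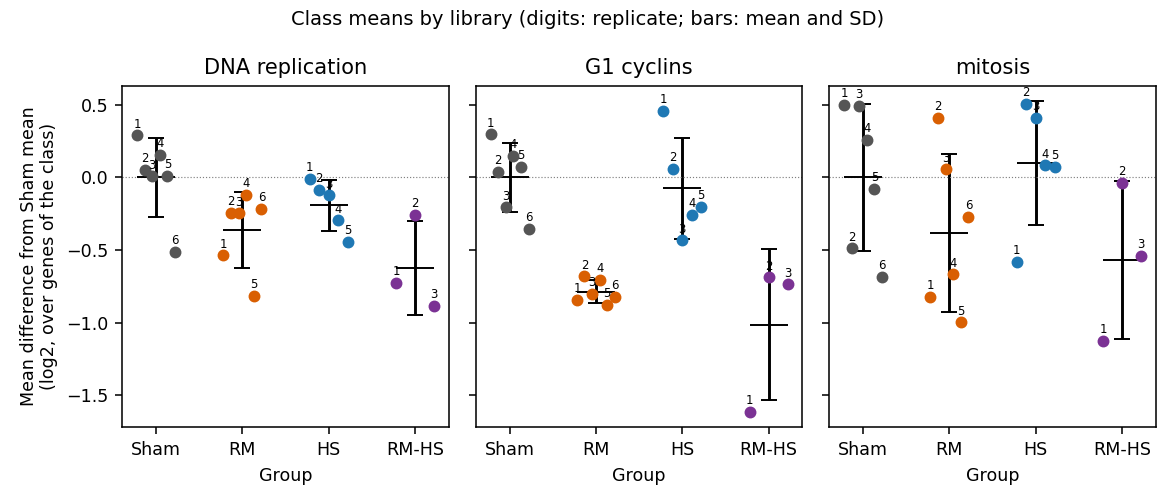
Mean difference from the Sham mean (y axis, log2) over the genes of each class in each library (points, digits give the replicate), with bars at the group mean and SD. All 6 RM libraries lie between -0.88 and -0.68 for the G1 cyclins, below every Sham library, while the mitosis means of every group overlap with Sham.

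The replication genes spread less. Their mean relative to Sham was -0.36 ± 0.26 in RM (n = 6), -0.19 ± 0.18 in HS (n = 5) and -0.62 ± 0.33 in RM-HS (n = 3), with an SD of 0.27 in Sham. The median SD of single replication genes within a group was 0.29, 0.27, 0.26 and 0.34 (log2) in Sham, RM, HS and RM-HS, close to 0.30, 0.27, 0.26 and 0.27 over all rows. For mitosis genes it was 0.58, 0.57, 0.47 and 0.61. An equal change is thus harder to call in a mitosis gene than in a replication gene with these libraries. The G1 cyclin mean was -0.79 ± 0.08 in RM, -0.08 ± 0.35 in HS and -1.01 ± 0.52 in RM-HS, with an SD of 0.24 in Sham, and neither RM nor RM-HS overlapped with Sham.

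The class means differed between HS 1 and the other HS libraries. The replication mean minus the mitosis mean was 0.57 in HS 1 and -0.59, -0.53, -0.38 and -0.52 in HS 2 to 5. In RM it ran from -0.65 (RM 2) to 0.55 (RM 4), in Sham from -0.49 (Sham 3) to 0.54 (Sham 2), and in RM-HS it was 0.40, -0.22 and -0.34. The ranges of Sham, RM and RM-HS thus overlapped, and 3 of 5 HS libraries lay below the Sham range.

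Compared directly, RM was below HS in 1 replication gene (Mcm2, -0.57 ± 0.09, limma adjusted p = 0.00023), 2 G1 cyclins and 4 mitosis genes, and above it in 1 mitosis gene, where 23.8% of all rows passed (11.1% higher, 12.6% lower). The 4 were Ccnb1, the mitotic cyclin (-1.21 ± 0.36, limma adjusted p = 0.021, named after its values were seen), Plk1 (-1.19 ± 0.38, limma adjusted p = 0.026), Kif11 (-0.45 ± 0.15, limma adjusted p = 0.034) and Cenpf (-1.04 ± 0.37, limma adjusted p = 0.048). Ccnb1 was lost without HS 2 (-1.10) or HS 3 (-1.07), and Plk1, Kif11 and Cenpf were lost under 8, 7 and 11 of 23 alternatives, mostly by leaving out 1 library. Tpx2 was the higher one (1.74 ± 0.48, limma adjusted p = 0.012), and among libraries named R its sign turned (-0.69, limma adjusted p = 0.697). The mitosis count of 5 was 1 without HS 2, 2 without HS 3 or HS 5 and 3 without HS 4, RM 1, RM 4 or RM 5. The median change of the mitosis genes was -0.61, that of the replication genes -0.17 and that of all rows 0.02.

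RM-HS was below HS in 2 replication genes, 2 G1 cyclins and 3 mitosis genes and above it in none, where 20.6% of all rows passed, 10.6% as lower. The replication genes were Mcm2 (-0.80 ± 0.11, limma adjusted p = 0.00014) and Mcm6 (-0.89 ± 0.24, limma adjusted p = 0.012, lost without RM-HS 3 at 0.085), the mitosis genes Kif11, Cenpf and Mki67. Without HS 1, the low HS library, 5 mitosis genes passed, and without RM-HS 3 the replication count was 1. The medians were -0.51 for replication genes, -0.71 for mitosis genes and 0.01 for all rows. Without RM-HS 1 the mitosis median was -0.35, and without RM-HS 3 the replication median was -0.28.

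RM-HS against RM gave no member that passed in limma, where 1.08% of all rows did (0.395% higher, 0.689% lower). At an unadjusted p under 0.05 there were 2 replication genes, 2 mitosis genes and 0 G1 cyclins. On reads recovered from the table edgeR called 0 members and DESeq2 called 1 replication and 1 mitosis gene. Without RM 1 limma called 1 replication and 2 mitosis genes, and without RM-HS 2 it called 1 replication gene. Mcm6 stood at -0.89 ± 0.23 in this comparison (limma adjusted p = 0.062), with every RM-HS library below every RM library.

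With Sham 1 and Sham 6 alone, 32.9% of all rows passed in RM (18.0% higher, 14.9% lower), 25.7% in HS (14.6% higher, 11.1% lower) and 27.2% in RM-HS (15.0% higher, 12.3% lower). Of the replication genes 2 rose and 3 fell in RM, 1 rose and 2 fell in HS, and 2 rose and 4 fell in RM-HS. Of the mitosis genes 2 rose in RM and 1 in HS, and none fell in either. In HS the median of the replication genes was 0.02 with these controls.

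Of 38 other replication factors tested (41 named), 4 rose and 23 fell in RM, 3 rose and 16 fell in HS and 2 rose and 23 fell in RM-HS, where 26.8%, 23.2% and 21.0% of all rows fell. Their median change was -0.50, -0.34 and -0.48. With Sham 1 and 6 alone 10, 8 and 11 fell and 1 rose in each, where 14.9%, 11.1% and 12.3% of all rows fell. With the name letter as covariate 11 passed in RM in place of 27, while all rows went from 53% to 28.5%. Without RM-HS 1 16 passed in RM-HS in place of 25, while all rows went from 42.3% to 31.7%. Fen1, the flap endonuclease of Okazaki fragments, fell in RM (-1.07 ± 0.13) and RM-HS (-0.88 ± 0.15) and was at 0.06 ± 0.13 in HS, and RM was below HS by -1.12 ± 0.13 (limma adjusted p = 7.2e-06). The primase subunit Prim2 fell in all 3 (-0.83 ± 0.14, -1.16 ± 0.15 and -0.87 ± 0.18), as did the clamp loader subunit Rfc5 (-0.79 ± 0.11, -0.77 ± 0.12 and -0.72 ± 0.14). Dbf4, which activates the origin-firing kinase Cdc7, rose in all 3 (1.25 ± 0.17, 1.19 ± 0.18 and 1.21 ± 0.21). Of these calls, Prim2 in RM (-0.47, limma adjusted p = 0.0612) and RM-HS (-0.52, limma adjusted p = 0.0749) did not pass against Sham 1 and 6 alone.

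Of 34 other mitosis genes tested (44 named), 1 rose and 10 fell in RM, 6 rose and 1 fell in HS, and 9 fell in RM-HS, with medians of -0.43, 0.08 and -0.59. Among all rows 26.8% fell in RM, 23.3% rose in HS and 21.0% fell in RM-HS. The reduced controls, Sham 1 and 6 alone, left fewer, as 2 fell in RM, 1 rose in HS and 5 fell in RM-HS. Among all rows 14.9%, 14.6% and 12.3% did so with these controls. The RM count of 11 was 6 or 7 without Sham 1, Sham 3, Sham 4, RM 5 or RM 6. The RM-HS count was 14 without Sham 6 and 4 without RM-HS 1, where 42.3% and 31.7% of all rows passed. Racgap1, of the central spindle, fell in RM (-1.30 ± 0.26) and RM-HS (-1.69 ± 0.32) and did not pass in HS (-0.49 ± 0.28), and the centrosome kinase Nek2 fell in all 3 (-0.97 ± 0.20, -0.71 ± 0.21 and -0.73 ± 0.24). The condensin subunit Smc4 rose in RM (0.73 ± 0.24) and HS (1.04 ± 0.25) and was at 0.01 ± 0.29 in RM-HS. Kif18a, a kinesin that aligns chromosomes, rose in HS (0.90 ± 0.22) and was lower in RM and in RM-HS than in HS by -1.06 ± 0.22 (limma adjusted p = 0.0016) and -1.06 ± 0.27 (limma adjusted p = 0.0087). Sham 1 and 6 alone ended the calls of Smc4 in RM (0.19) and HS (0.50), of Kif18a in HS (0.81) and of Nek2 in HS (-0.74) and RM-HS (-0.76).

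Replication checkpoint and repair genes fell in 6, 4 and 8 of 12 tested (15 named) in RM, HS and RM-HS, and rose in 2, 2 and 0, and with Sham 1 and 6 alone 3, 1 and 6 fell. Of all rows 26.8%, 23.2% and 21.0% fell and 26.2%, 23.3% and 21.3% rose, and with Sham 1 and 6 alone 14.9%, 11.1% and 12.3% fell. Brca2, of homologous recombination, fell in all 3 (-1.16 ± 0.17, -0.52 ± 0.18 and -1.87 ± 0.21), as did Rad54l (-1.77 ± 0.37, -1.41 ± 0.39 and -3.06 ± 0.46) and Fancd2 (-1.01 ± 0.18, -1.23 ± 0.19 and -1.06 ± 0.22). Rad17, the checkpoint clamp loader, rose in RM (0.45 ± 0.09) and HS (0.75 ± 0.10). Brca2 in HS (-0.62), Rad54l in RM (-1.48) and HS (-1.12) and Fancd2 in RM-HS (-0.74) missed the threshold with the reduced controls.

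Of 14 E2F, RB and DREAM factors tested (19 named), 3 rose and 2 fell in RM, 3 rose and 2 fell in HS, and 1 rose and 4 fell in RM-HS. In the same order, 26.2%, 23.3% and 21.3% of all rows rose and 26.8%, 23.2% and 21.0% fell. E2f8, a repressor among the E2F factors, fell in RM (-1.64 ± 0.30) and RM-HS (-2.52 ± 0.37), was at -0.33 ± 0.32 in HS, and lay below HS in both direct comparisons (-1.31 ± 0.32 and -2.19 ± 0.38). E2f1, an activator, fell in HS (-0.75 ± 0.24) and RM-HS (-1.35 ± 0.28) and was at -0.43 ± 0.23 in RM. E2f4, which works with the DREAM complex, rose in all 3 (0.59 ± 0.11, 0.76 ± 0.11 and 0.65 ± 0.13), and E2f6 in RM (0.52 ± 0.11). Against Sham 1 and 6 alone the list had 1 rise in RM, 2 rises and 1 fall in HS and 1 rise and 2 falls in RM-HS. With these controls 18.0%, 14.6% and 15.0% of all rows rose and 14.9%, 11.1% and 12.3% fell. E2f8 (-1.08) and E2f6 (0.42) in RM and E2f1 in HS (-0.44) then did not pass.

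Of 15 other cyclin, CDK and CDC25 genes tested (17 named), 3 rose and 5 fell in RM, 3 rose and 2 fell in HS, and 2 rose and 5 fell in RM-HS. In the same order, 26.2%, 23.3% and 21.3% of all rows rose and 26.8%, 23.2% and 21.0% fell. Cdk6, a partner of D-type cyclins, rose in all 3 (1.48 ± 0.17, 1.49 ± 0.18 and 0.86 ± 0.21), as did Ccnh, cyclin H (0.83 ± 0.10, 0.56 ± 0.10 and 0.74 ± 0.12). Cyclin D3, Ccnd3, fell in all 3 (-0.76 ± 0.10, -0.68 ± 0.11 and -0.69 ± 0.12), and Fzr1, an activator of the anaphase-promoting complex in G1, fell in RM (-0.73 ± 0.11) and RM-HS (-0.38 ± 0.13). The reduced controls left 2 rises in each comparison and 4, 1 and 2 falls, with Ccnh in HS (0.38) and Fzr1 in RM-HS (-0.30) no longer passing. With them 18.0%, 14.6% and 15.0% of all rows rose and 14.9%, 11.1% and 12.3% fell.

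CDK inhibitors went both ways, with 2 rises and 2 falls of 6 tested (8 named) in RM and RM-HS and 3 rises and 2 falls in HS. In RM, HS and RM-HS 26.2%, 23.3% and 21.3% of all rows rose and 26.8%, 23.2% and 21.0% fell. Cdkn1a, p21, rose by 2.99 ± 0.27, 2.16 ± 0.29 and 3.24 ± 0.33, and Cdkn2b, p15, by 3.72 ± 0.73, 2.49 ± 0.76 and 3.50 ± 0.89 in RM, HS and RM-HS. Cdkn2c, p18, fell in all 3 (-1.11 ± 0.12, -0.54 ± 0.13 and -0.89 ± 0.15), and Cdkn1c, p57, in HS (-0.79 ± 0.21) and RM-HS (-0.75 ± 0.24). Sham 1 and 6 alone gave 2 rises and 1 fall in each comparison, and Cdkn1c did not pass in either (-0.85 and -0.81). With these controls 18.0%, 14.6% and 15.0% of all rows rose and 14.9%, 11.1% and 12.3% fell. Of 11 arrest genes of the p53 response, 11, 9 and 11 rose, where 26.2%, 23.3% and 21.3% of all rows did. With Sham 1 and 6 alone 9, 8 and 10 rose, where 18.0%, 14.6% and 15.0% of all rows did. Gadd45a, a stress-induced brake on the cycle, rose in RM (2.08 ± 0.14) and RM-HS (2.40 ± 0.17) and did not pass in HS (0.25 ± 0.14, limma adjusted p = 0.16). Plk3 rose by 3.49 ± 0.16 in RM, 0.50 ± 0.17 in HS and 3.73 ± 0.19 in RM-HS, and its HS call did not pass with the reduced controls (0.42, limma adjusted p = 0.186).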

How the data were processed

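Stranded mRNA libraries of rat kidney, 20 in all, were read from both ends at 75 bp, as the labels' protocols say. The authors used, per the submitters' processing notes, FastQC 0.11.2, Picard 1.119, SAMtools 1.0, STAR, the rn6 build, featureCounts of Subread 1.5.0 and DESeq2. The deposited signal values are therefore taken as read counts divided by size factors, and 100% of them were whole reads, within 0.1 read, once multiplied by a size factor. How STAR and featureCounts were set is not given in the sources used here.

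The 15954 rows with at least 10 in at least 3 libraries were fitted together by limma 3.58.1 in R 4.3.3, on log2(value + 1) and with a trend of variance on mean, with all 20 libraries and 4 group means in 1 fit, and p-values were adjusted over these rows by the Benjamini-Hochberg method. The script was tested on simulated data. The members, the gene lists and the tests were chosen with earlier results of these data known. Genes were named by a rule: the G1 cyclins, up to 8 replication and 10 mitosis genes by smallest adjusted p against Sham, and up to 4 genes of each wider list. Alternatives were pseudocounts of 0.5 and 8, no filter, a filter of 50 in 3 libraries, other scalings, 2-group fits, the letter that opens the library name as covariate, only libraries with the letter R, limma's array weights, count tests on the recovered reads (edgeR 4.0.16, DESeq2 1.42.0), and leaving out each library. Sham 1 and Sham 6 alone as controls were added after seeing the data. Gene positions are those of the file on rn6, and promoters are those of RefSeq on GRCr8, matched by symbol.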

Additional observations from a re-analysis of the deposited data

Results flagged for a closer look

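In 108 groups of 5 or 6 libraries (36 genes in Sham, RM and HS), 6 had 1 library set apart from the others by Dixon's ratio on the log2 scale, where chance sets about 1 in 20 apart. Mcm2 was 1316 in HS 1, above the other HS libraries. Mcm3 was 113.1 and Cdc6 was 22.3 in Sham 6, below the other Sham libraries. Tyms was 365 in HS 5, above the other HS libraries. Ccne2 was 67.8 and Tpx2 was 86.8 in RM 1, below the other RM libraries, and RM 1 is the RM library whose name begins with R. Whether the name takes part in these values was not tested.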

How the results depend on the processing

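Of the 56 calls of members over the 6 comparisons, 13 held under every alternative run, 11 of them against Sham. These 11 were Mcm2 and Rrm1 in RM, Pcna, Tyms and Kif11 in HS, and Mcm2, Mcm6, Pcna, Rrm1, Tyms and Ccne1 in RM-HS. Sham and RM-HS hold only libraries named R. The settings on the library name therefore left the RM-HS medians against Sham at -0.91 for replication and -0.65 for mitosis genes. In RM the same settings rested on 1 library named R, so calls in RM and RM-HS did not face equal tests. Counts below are of genes passing limma unless a tool is named, and the cause of each shift was not tested.

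Sham 1 and 6 alone left 5 replication and 2 mitosis genes in RM, 3 and 1 in HS, and 0 mitosis genes in RM-HS (2 at an unadjusted p under 0.05), with replication medians of 0.015 in HS and -0.63 in RM-HS. With the name letter as covariate RM had 5 replication and 2 mitosis genes against Sham, where 28.5% of all rows passed. Against HS it had 2 mitosis genes, where 19.5% of all rows passed. Among libraries named R, with 1 RM library, calls in RM were lost across all rows as well as among the members. The RM medians there were -0.74 for replication and -0.88 for mitosis genes against Sham. Against HS they were -0.60 and -0.94, and Tpx2 reversed to -0.69. edgeR and DESeq2 were not run on that subset. On it HS had 2 replication genes against Sham and RM-HS 1 mitosis gene against HS. For mitosis genes in RM-HS against Sham, upper quartile scaling gave 8, array weights 8 and DESeq2 7. Array weights and DESeq2 each gave 1 replication and 1 mitosis gene in RM-HS against RM, array weights gave 5 mitosis genes in RM-HS against HS, and a fit of the 2 groups alone gave 1 replication gene there. Leaving out 1 library gave 0 to 8 mitosis genes in RM-HS against Sham, 1 to 7 in RM against HS, 0 to 2 in RM-HS against RM and 2 to 5 in RM-HS against HS, and 0 to 1 replication genes in RM-HS against RM and 1 to 3 in RM-HS against HS. Upper quartile scaling moved the median of all rows by -0.14, -0.12 and -0.14 in RM, HS and RM-HS. No paired analysis was possible because the labels carry no replicate numbers, so numbers here follow accession order. With 3 libraries, RM-HS gave the least precise changes.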
